A study of Mus musculus with 8 samples.

Results

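The iron handling genes described here are 8 of the 53801 genes in the count table: the Steap metalloreductases Steap2, Steap3 and Steap4, the transferrin receptor Tfrc, the iron transporter Slc11a2, the ferritin chains Fth1 and Ftl1, and the iron exporter Slc40a1. They were picked by gene symbol and joined by Ensembl identifier to the raw counts. The set was chosen because Steap4 was near absent in one genotype of this same comparison. Its difference between the genotypes is therefore a description without a test, and only the other 7 genes were tested.

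Cells take up most of their iron as ferric iron bound to transferrin, which enters through the transferrin receptor by endocytosis. In the endosome a Steap protein reduces ferric to ferrous iron, and the transporter DMT1, encoded by Slc11a2, carries it into the cytosol. Surplus iron is stored in the shell of ferritin heavy and light chains or leaves the cell through ferroportin, encoded by Slc40a1. The iron regulatory proteins sense cytosolic iron and bind a stem-loop of the messenger RNA, the iron responsive element. Their binding to elements in a 3′ UTR protects the transcript, and their binding to an element in a 5′ UTR blocks its translation. The intestine is the site of iron absorption, and dividing crypt cells draw iron from the blood through the transferrin receptor.

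The iron responsive elements of these genes are shown because they are the feature by which transcripts of uptake, storage and export differ in their control. They were found in the GENCODE transcripts of GRCm38 (mm10) as an unpaired C, 5 bases, the loop CAGTGN in capitals, and 5 bases that pair with the first 5 (A-T, G-C or G-T pairs). Only the transcribed strand was searched. Each is given as 27 bases, 5′ to 3′. Tfrc carried 4 elements in its 3′ UTR on the plus strand of chromosome 16:
Tfrc chr16:32631220-32631246: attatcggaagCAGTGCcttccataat
Tfrc chr16:32631599-32631625: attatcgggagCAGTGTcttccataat
Tfrc chr16:32631664-32631690: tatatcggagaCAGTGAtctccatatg
Tfrc chr16:32631711-32631737: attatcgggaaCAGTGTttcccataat
The storage and export genes carried 1 element each in the 5′ UTR, on the plus strand for Fth1 and the minus strand for Ftl1 and Slc40a1:
Fth1 chr19:9982733-9982759: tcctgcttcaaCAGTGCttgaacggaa
Ftl1 chr7:45459780-45459806: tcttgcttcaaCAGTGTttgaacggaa
Slc40a1 chr1:45925466-45925492: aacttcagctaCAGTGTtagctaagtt
These 7 sites lay in 4 of the 8 genes. Of 21901 protein-coding genes, 294 (1.34%) held the pattern in at least 1 transcript. The letters were not found in the annotated transcripts of Slc11a2, Steap2, Steap3 or Steap4. The pattern allows no bulge between the pairs, and it also missed the element that is known in the 3′ UTR of a Slc11a2 transcript. A missing match therefore does not mean that a transcript has no element, and the matches in Tfrc may not be all of its elements. A match is a description of sequence, and neither protein binding nor translation was measured here.

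The study asked what the histone methyltransferase Mll1 (gene Kmt2a) does in intestinal stem cells with overactive Wnt signaling. RNA of sorted Lgr5-GFP+ crypt cells came from 8 mice, of which 4 had the genotype label β-cat GOF; Mll1-/- and the other 4 the label β-cat GOF; Mll1+/-. All mice carried the Lgr5-EGFP-IRES-CreERT2 allele, the gain-of-function β-catenin allele (β-cat GOF) and floxed Mll1, and received tamoxifen at 50 mg per kg on 3 days at an age of 4 to 6 weeks. Cells were taken 10 days after induction and stained for EpCAM and CD45 before sorting. The controls carry β-cat GOF and a heterozygous Mll1 mutation themselves, and no library with unmutated β-catenin was used here. Cre was expressed from the Lgr5 locus, so mutation started in Lgr5-expressing cells, and the share of sorted cells that had recombined was not measured in these files. Both sexes were used in the study and sex is not labelled per mouse. In each library the RNA of a small pool of cells was amplified without molecular identifiers, so floors and counting intervals cover counting error only. In such bulk samples, fewer cells of a type and less RNA per cell cannot be told apart.

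The libraries held 14468751 to 16847793 counts on genes, and 3 counts, the limit used as a floor, were worth 0.162 to 0.241 CPM (counts relative to the TMM-scaled size of the library). Kmt2a lay at 53.5 to 78.5 CPM in the libraries labelled Mll1-/- and at 48.9 to 64.9 CPM in those labelled Mll1+/- (log2 fold change 0.24, SE 0.17, adjusted p = 0.710, edgeR). The counts over the whole gene thus do not show the deletion, and the genotypes are used as labelled. The stem cell marker Lgr5 was present at 261 ± 19.9 and 271 ± 41.0 CPM (SD, n = 4 each). Library J_7135 (Mll1-/-) stood apart, with a Spearman correlation over genes of 0.909 to its nearest library against 0.947 to 0.966 for the others, and it held both Xist (208 CPM) and Y-linked transcripts (165 CPM). The library numbers form 2 runs of consecutive numbers, 41733 to 41736 and 41741 to 41744, and no sample label names them as batches. The first run holds J_7075 and J_7096 (Mll1-/-) and J_7079 and J_7100 (Mll1+/-). The second run holds J_7135 and J_7136 (Mll1-/-) and J_7134 and J_7139 (Mll1+/-). In the first run Xist lay at 0.649 and 2.84 CPM in the Mll1-/- libraries and at 523 and 517 CPM in the Mll1+/- libraries, so sex and genotype cannot be told apart there.

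The largest difference among these genes was in Steap4, a plasma membrane and endosomal metalloreductase that reduces iron and copper (ENSMUSG00000012428, chromosome 5 from 7960457 to 7982213, plus strand). In the Mll1-/- libraries it was read at 0.118 CPM in J_7075, 0 in J_7096, 0.108 in J_7135 and 0.0657 in J_7136, which are 2, 0, 2 and 1 counts. In the Mll1+/- libraries it was read at 2.27 CPM in J_7079, 1.05 in J_7100, 0.882 in J_7134 and 3.10 in J_7139, which are 38, 15, 11 and 48 counts. All 4 Mll1-/- libraries lay below the floor and all 4 Mll1+/- libraries above it, without overlap, which is the pattern that chose the gene. Of all genes tested, 6.28% had no overlap between the genotypes, 2.94% with every Mll1-/- library lower and 3.34% with every Mll1-/- library higher. Means were 0.0730 ± 0.0537 CPM against 1.83 ± 1.05 CPM (SD, n = 4 each). The pooled counts of 5 and 112 gave a ratio, scaled for library size, of 25.8 (95% counting interval 10.7 to 81.1), and the fitted log2 fold change was -4.50 (SE 0.81), a value that depends on the small count added to each library. Both runs showed the gap, with 2 against 53 counts in J_7075 to J_7100 and 3 against 59 counts in J_7134 to J_7139.

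Even in the Mll1+/- libraries Steap4 held a small share of the counts on Steap2, Steap3 and Steap4. Steap2, Steap3 and Steap4 together were read at 23.7 to 49.9 CPM there, of which Steap4 held 2.52 to 6.59%, against 39.2 to 57.8 CPM and 0 to 0.257% in the Mll1-/- libraries. These shares are not corrected for gene length. Per kb of gene length, the Mll1+/- means were 3.02 CPM for Steap2, 0.579 for Steap4 and 0.359 for Steap3, the last 2 with overlapping ranges. Steap1, outside this sum, was at 24.5 CPM per kb. Steap4 entered the test across genes only through its counts in the Mll1+/- libraries, so that the number of these genes passing the filter on low counts is no result. It shared no exonic bases with another gene and none of its 31-base words with transcripts of other genes.

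Steap2, a metalloreductase of the Golgi and plasma membrane, was the most abundant of the 3 (ENSMUSG00000015653, chromosome 5 from 5664829 to 5694578, minus strand). It lay at 43.5, 33.9, 52.8 and 48.9 CPM in the Mll1-/- libraries J_7075, J_7096, J_7135 and J_7136. It lay at 44.7, 39.6, 20.5 and 42.2 CPM in the Mll1+/- libraries J_7079, J_7100, J_7134 and J_7139, the order used for the values of all genes that follow. The genotypes overlapped, and J_7134 was the lowest library. This gave a log2 fold change of 0.29 (SE 0.26, 95% interval -0.293 to 0.865, adjusted p = 0.784, edgeR). By run, the difference of mean log2 CPM was -0.13 and 0.79. Across all 16445 genes tested, 14 (0.0851%) had an adjusted p under 0.1, 0.0486% higher and 0.0365% lower in Mll1-/-, and none of the 7 tested iron handling genes was among them. At an unadjusted p under 0.05, reached by 9.15% of all genes, the count of the 7 was also 0, and DESeq2 called 0 of them.

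Steap3, the endosomal ferrireductase of the transferrin cycle in red cell precursors, was low in these cells (ENSMUSG00000026389, chromosome 1 from 120190757 to 120272705, minus strand). It was read at 2.18, 5.27, 4.81 and 0.788 CPM in the Mll1-/- libraries and at 2.93, 1.195, 2.33 and 1.74 CPM in the Mll1+/- libraries. The lowest and the 2 highest values were all Mll1-/-, so the spread within that genotype was wide. The log2 fold change was 0.67 (SE 0.60, adjusted p = 0.782, edgeR), with a 95% interval from -0.673 to 2.014 that holds changes of either sign. Steap1, the family member without the reductase domain, was read on the same chromosome as Steap2 and Steap4 (chromosome 5 from 5736317 to 5749326). It lay at 30.5, 31.1, 23.9 and 32.4 CPM in Mll1-/- and at 18.8, 25.9, 30.2 and 60.0 CPM in Mll1+/-. The log2 fold change of -0.19 (SE 0.33, adjusted p = 0.898, edgeR) was decided by J_7139, the library at 60.0 CPM, without which it was 0.24.

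**Figure D1:**
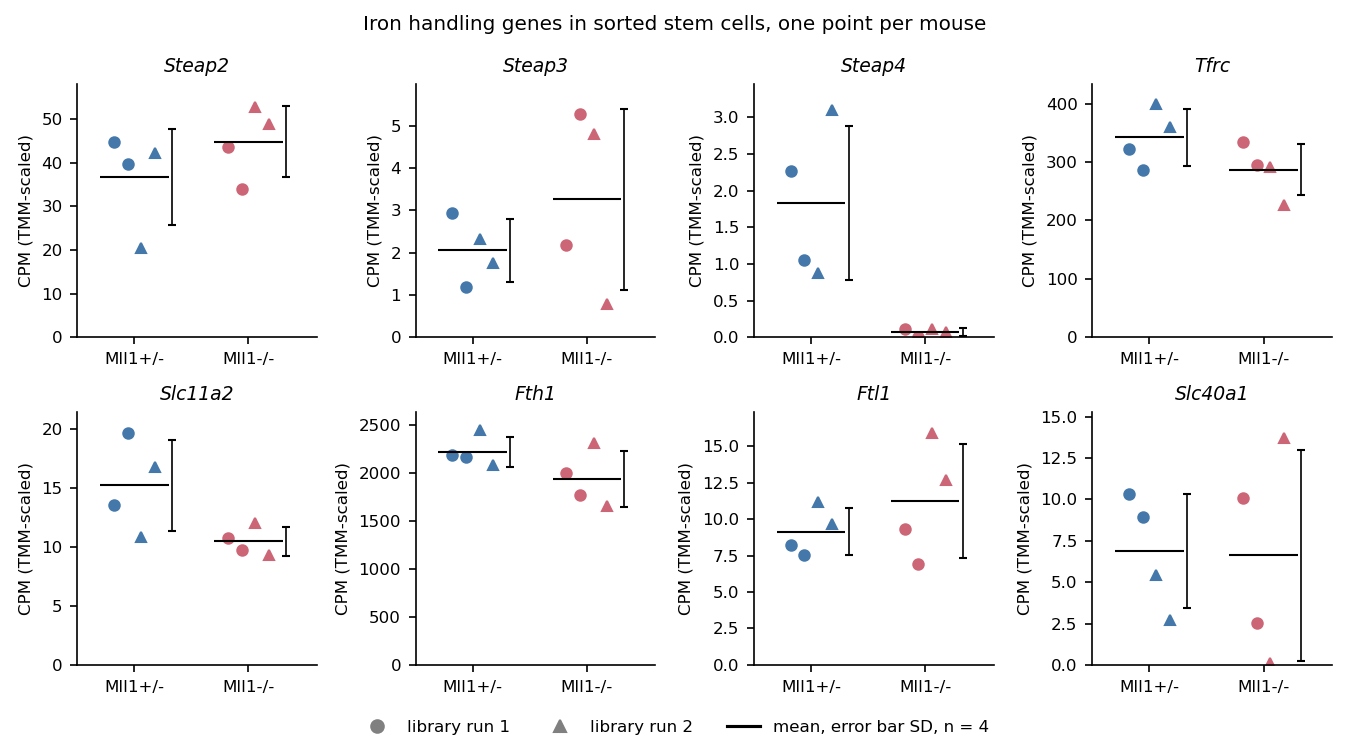
TMM-scaled CPM of the 8 genes (vertical axes from 0), 1 point per mouse, circles for the first library run and triangles for the second, with the mean as a line and the SD of 4 libraries as the error bar. The genotypes are apart only for Steap4, at 0 to 0.118 CPM in Mll1-/- and 0.882 to 3.10 CPM in Mll1+/-, and overlap for the other 7 genes.

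Iron uptake is represented by the receptor and the transporter. Tfrc, which carries transferrin into the endosome, was the second most abundant of these genes (ENSMUSG00000022797, chromosome 16 from 32608920 to 32632794, plus strand). It lay at 334, 295, 292 and 227 CPM in the Mll1-/- libraries and at 322, 286, 400 and 361 CPM in the Mll1+/- libraries. The genotypes overlapped, with both extremes in the second run. Means were 287 ± 44.3 and 342 ± 49.0 CPM (SD, n = 4 each), a log2 fold change of -0.25 (SE 0.15, 95% interval -0.585 to 0.079, adjusted p = 0.652, edgeR). Split by run, the differences were 0.05 and -0.56. The 4 elements matched in its 3′ UTR, printed above, are of the kind through which low iron is known to protect this transcript.

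Slc11a2, which encodes the ferrous iron transporter DMT1 of endosomes and of the enterocyte brush border, had the smallest p of the tested genes (ENSMUSG00000023030, chromosome 15 from 100387898 to 100425072, minus strand). It lay at 10.7, 9.73, 12.1 and 9.33 CPM in the Mll1-/- libraries and at 13.6, 19.7, 10.8 and 16.8 CPM in the Mll1+/- libraries. All values but 1 separated by genotype, the exception being J_7134 at 10.8 CPM, which lay among the Mll1-/- libraries. Slc11a2 had a log2 fold change of -0.54 (SE 0.24, 95% interval -1.083 to 0.003, unadjusted p = 0.0509, adjusted p = 0.550, edgeR), and it was -0.67 and -0.34 in the 2 runs. Of its exonic bases 6.33% overlapped Gm5475, and reads over more than 1 gene were not counted.

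Fth1, the ferritin heavy chain that oxidizes iron on entry into the shell, was by far the most abundant of the 8 (ENSMUSG00000024661, chromosome 19 from 9982703 to 9985092, plus strand). It lay at 2001.5, 1772.1, 2309.8 and 1650.3 CPM in the Mll1-/- libraries and at 2183.3, 2165.0, 2442.1 and 2077.4 CPM in the Mll1+/- libraries. Only J_7135 among the Mll1-/- libraries reached into the Mll1+/- range. Means were 1933 ± 290.1 and 2217 ± 157.0 CPM (SD, n = 4 each), a log2 fold change of -0.20 (SE 0.12, 95% interval -0.462 to 0.067, adjusted p = 0.655, edgeR), with -0.21 in each run. Neither bound of this interval reached 0.5 on the log2 scale.

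Ftl1, the ferritin light chain that aids the building of the iron core, was counted at a level far below Fth1 (ENSMUSG00000050708, chromosome 7 from 45457944 to 45459884, minus strand). It lay at 9.32, 6.95, 15.9 and 12.7 CPM in the Mll1-/- libraries and at 8.20, 7.52, 11.1 and 9.68 CPM in the Mll1+/- libraries. With overlapping libraries, the difference was 0.30 on the log2 scale (SE 0.30, 95% interval -0.376 to 0.967, adjusted p = 0.814, edgeR). This level is uncertain: 57.7% of its 31-base words occur in transcripts of 30 other genes, 54.4% in the processed copy Ftl1-ps1, and 34.6% of its exonic bases overlap Gm10252 or Gm22133. Only uniquely mapped reads were counted, and reads from the shared stretches could be lost or assigned to a copy. Ftl1-ps1 was read at 56.6 ± 4.25 and 55.7 ± 5.42 CPM (SD, n = 4 each), above Ftl1 itself. Ftl1 summed with its copies Ftl1-ps1, Ftl1-ps2 and Ftl2 lay at 80.6 ± 4.45 and 78.6 ± 9.90 CPM (SD, n = 4 each), a log2 fold change of 0.04 (SE 0.13, adjusted p = 0.959, edgeR). The sum was added after the data were seen. Fth1 shared 3.24% of its words with other genes. The elements of Fth1 and Ftl1 printed above shared 25 of 27 bases, against 13 of 27 between Fth1 and Slc40a1.

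Slc40a1, which encodes ferroportin, the only known cellular iron exporter, had the widest relative spread of the 8 within Mll1-/-, with a coefficient of variation of 96.2% (ENSMUSG00000025993, chromosome 1 from 45908068 to 45926523, minus strand). It lay at 10.1, 2.55, 0.108 and 13.7 CPM in the Mll1-/- libraries and at 10.4, 8.93, 5.45 and 2.71 CPM in the Mll1+/- libraries. J_7135 held 2 counts of it, under the floor, while J_7136 of the same run and genotype held the highest value. Means were 6.62 ± 6.36 and 6.86 ± 3.45 CPM (SD, n = 4 each). The log2 fold change of -0.06 (SE 0.95, 95% interval -2.183 to 2.071, adjusted p = 0.992, edgeR) had no stable direction, being 0.35 without J_7135 and 0.07 with the run as a block. A difference of 4-fold in either direction lies within this interval, so none was detectable at this spread.

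Per kilobase of gene length, the order of levels was nearly the same in both genotypes. In Mll1+/- the means ran from Fth1 (2560 CPM per kb) through Tfrc (55.3), Steap1 (24.5), Ftl1 (6.82), Steap2 (3.02), Slc11a2 (2.40), Slc40a1 (0.762) and Steap4 (0.579) to Steap3 (0.359). In Mll1-/- they ran from Fth1 (2230 CPM per kb) through Tfrc (46.4), Steap1 (21.4), Ftl1 (8.37), Steap2 (3.69), Slc11a2 (1.65), Slc40a1 (0.735) and Steap3 (0.571) to Steap4 (0.0231). Ranges of neighbours overlapped in Mll1+/- between Steap2 and Slc11a2, between Slc40a1 and Steap4, and between Steap4 and Steap3. In Mll1-/- they overlapped between Slc11a2 and Slc40a1 and between Slc40a1 and Steap3. In Mll1+/- the level of Fth1 per kb was 375 times that of Ftl1 as counted and 46.3 times that of Tfrc. The ratio to Ftl1 is uncertain, since reads of Ftl1 could be lost or assigned to its copies. In Mll1+/- Ftl1-ps1 was read at 55.7 CPM against 9.14 CPM for Ftl1. There Steap2 lay 5.22 times above Steap4 and 8.44 times above Steap3 per kb. The order differed between the genotypes only in that Steap3 and Steap4 exchanged places.

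**Figure D2:**
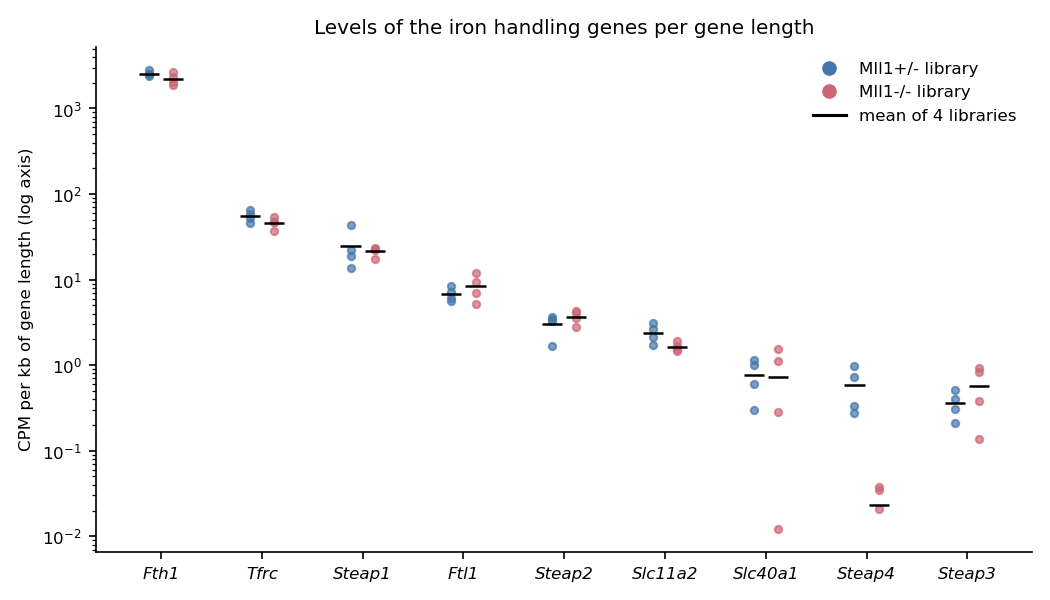
Level per kilobase of gene length (CPM per kb, log axis) of the 8 genes and Steap1, 1 point per library, with the mean of 4 libraries as a line. Fth1 is at 2560 and Steap3 at 0.359 CPM per kb in Mll1+/-, Steap4 is at 0.0231 in Mll1-/-, and its library J_7096 at 0 has no point on the log axis.

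The wider iron pathway was read from 5 lists of genes for reduction and uptake, storage and export, sensing, haem, and mitochondrial iron with iron-sulphur clusters. They held 96 genes with the Steap family, of which 81 passed the filter on low counts. Steap4, chosen for its value, was left out of the counts and medians that follow. Of the other 80, 40 were higher and 40 lower in Mll1-/-, with a median log2 fold change of -0.01 against 0.01 over all genes. Of these 80, 0 had an adjusted p under 0.1 (edgeR). An unadjusted p under 0.05 was reached by 6 (7.5%, against 9.15% of all genes), 2 higher and 4 lower, against 5.4% and 3.75% of all genes in these directions. The genotypes did not overlap in 4 (5%, against 6.28% of all genes).

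In the list of reduction and uptake, 7 of 14 tested genes were higher and 7 lower, with a median of -0.003, which was 0.15 without J_7135. The ascorbate-dependent reductase gene Cyb561 lay at 41.2 ± 9.95 against 28.2 ± 6.38 CPM (SD, n = 4 each, log2 fold change 0.55, adjusted p = 0.524, edgeR). Log2 fold changes were 1.04 for the siderophore receptor Slc22a17, 0.28 for the metal transporter Slc39a8 and -0.56 for the lysosomal channel Mcoln1, with adjusted p of 0.646, 0.721 and 0.763 (edgeR). Cybrd1, the ferric reductase of the enterocyte brush border, did not exceed 0.65 CPM in any library.

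In storage, chaperones and export, 5 of 11 tested genes were higher and 6 lower, with a median of -0.06 that turned to 0.08 without J_7135. Ncoa4, the receptor that sends ferritin to the lysosome, lay at 7.56 ± 1.49 against 12.9 ± 2.88 CPM (SD, n = 4 each), with every Mll1-/- library lower. The gap was narrow, from 8.79 CPM in J_7075 (Mll1-/-) to 8.92 CPM in J_7079 (Mll1+/-). The log2 fold change of -0.77 (SE 0.27) missed the threshold, with an adjusted p of 0.460 (edgeR). The difference was -0.65 for Abcg2 and -0.95 for Flvcr1, exporters of porphyrin and haem, and 0.18 for the iron chaperone Pcbp1, with adjusted p of 0.537, 0.627 and 0.788 (edgeR). The copper ferroxidase gene Heph, the partner of ferroportin, was tested with a log2 fold change of -0.09 (adjusted p = 0.949, edgeR). Heph is on the X chromosome, and its differences by run were -0.42 and 0.40.

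In iron sensing, 5 of 13 tested genes were higher and 8 lower, with a median of -0.05 that turned to 0.08 without J_7135 (8 higher, 5 lower). The iron regulatory protein genes Aco1 and Ireb2 lay at 58.0 ± 11.8 against 60.6 ± 9.91 CPM and at 82.6 ± 15.3 against 89.5 ± 18.8 CPM (SD, n = 4 each). Neither passed the test, with adjusted p of 0.950 and 0.894 (edgeR), and the sign of Ireb2 turned from -0.12 to 0.03 without J_7100. Fbxl5, which marks iron regulatory protein for decay, Arnt, the partner of the hypoxia factors, and Furin, a protease, had log2 fold changes of -0.20, 0.33 and 0.28 (adjusted p of 0.749, 0.655 and 0.819, edgeR). Hamp, the gene of hepcidin, did not pass the filter on low counts.

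In haem synthesis and breakdown, 10 of 14 tested genes were higher and 4 lower, with a median of 0.26, which was 0.07 without J_7135. Blvrb, a biliverdin reductase, lay at 74.6 ± 20.5 against 46.8 ± 18.4 CPM (SD, n = 4 each, log2 fold change 0.67, adjusted p = 0.526, edgeR). Slc48a1, a haem transporter, and Pgrmc1, a haem-binding protein, had log2 fold changes of 0.76 and -0.40 (adjusted p of 0.600 and 0.623, edgeR). Pgrmc1 did not overlap between the genotypes and is on the X chromosome, which matters where sex is unlabelled.

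In mitochondrial iron and iron-sulphur cluster assembly, 13 of 27 tested genes were higher and 14 lower, with a median of -0.04. Hscb, the co-chaperone that hands clusters over, had the smallest adjusted p of all listed genes, at 41.8 ± 6.37 against 60.6 ± 4.88 CPM (SD, n = 4 each), again with every Mll1-/- library lower. The log2 fold change of -0.54 (SE 0.16) gave an adjusted p of 0.361 with edgeR and 0.0681 with DESeq2, which called it. Nubp1, a scaffold of cytosolic cluster assembly, was the one listed gene with every Mll1-/- library higher (29.5 ± 2.60 against 23.2 ± 1.58 CPM, SD, n = 4 each, log2 fold change 0.35, adjusted p = 0.557, edgeR). Bola3, which takes part in cluster delivery, had a log2 fold change of -0.32 (adjusted p = 0.550, edgeR).

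**Figure D3:**
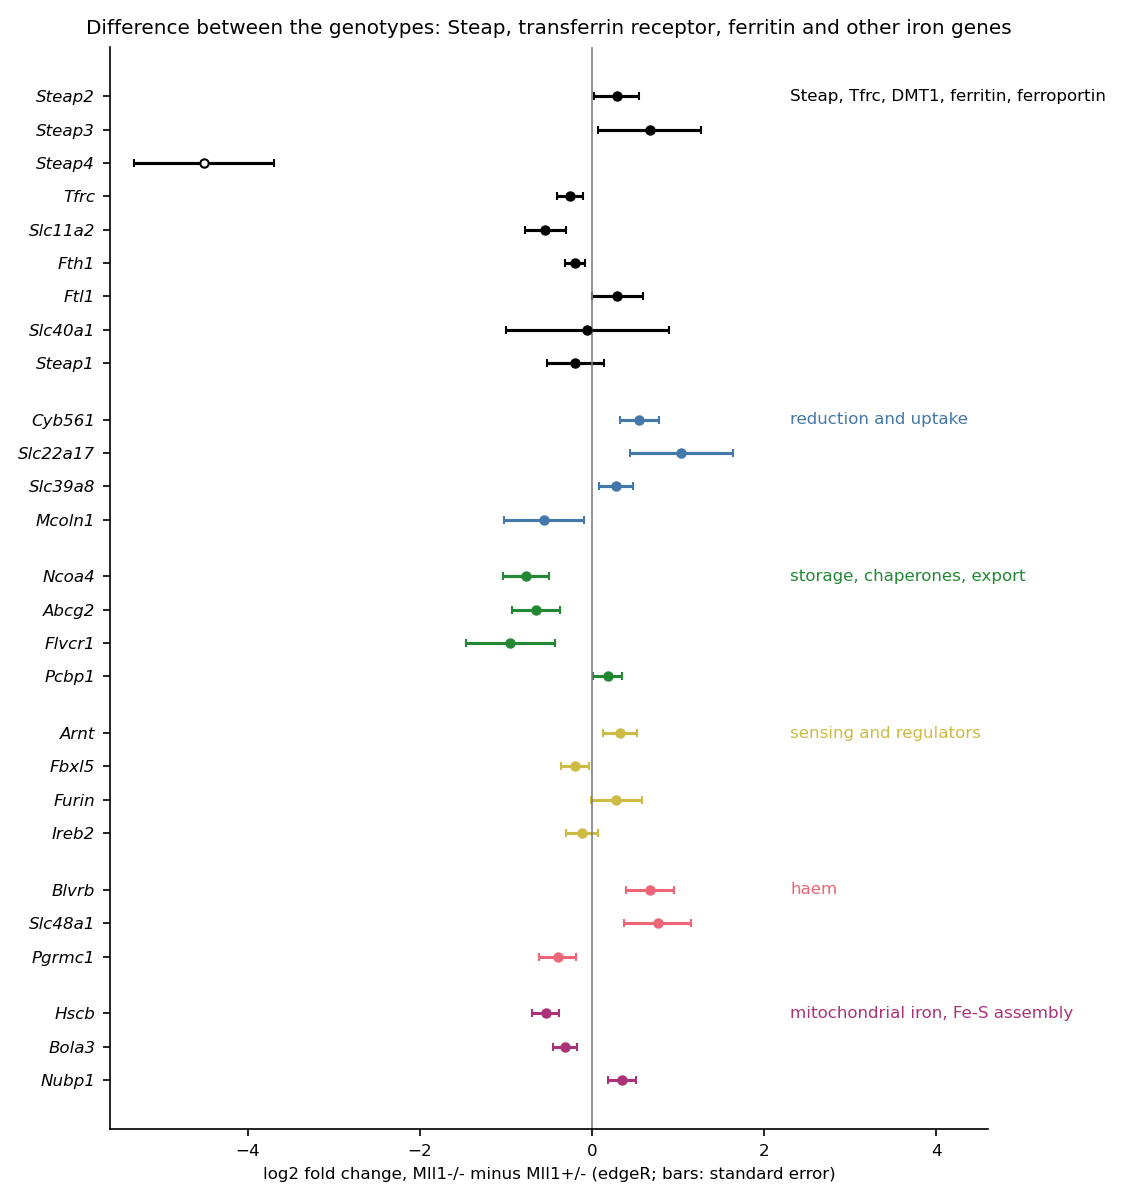
Log2 fold change, Mll1-/- minus Mll1+/- (horizontal axis), with the standard error from edgeR as bars, for the 8 genes, Steap1 and the genes named from 5 iron lists. Steap4 (open circle, no test) lies at -4.50, and the other genes lie between -0.95 and 1.04.

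The genes whose pattern over the 8 libraries was most like that of Steap4 were found by the root mean square difference of centred log2 CPM. They were Gm9530 (0.575), Kcnmb2, a subunit of a potassium channel (0.701), Celf2, an RNA-binding protein (0.725), Igha, the immunoglobulin A heavy chain of plasma cells (0.725), and Zfp28, a zinc finger protein (0.764). All 5 were low, at 0.823 to 4.17 CPM on average in Mll1+/- and 0.0148 to 0.757 CPM in Mll1-/-. In each of them every Mll1-/- library lay below every Mll1+/- library, as the measure favours.

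Levels of markers of other cell types are given beside Steap4, with a lower sum in every Mll1-/- library for enterocyte and stem cell markers, and their part in its difference was not tested. All 9 tested enterocyte markers of 12 listed were lower in Mll1-/- (median log2 fold change -1.27, and -1.29 without J_7135), and their summed level was 199 to 274 CPM against 344 to 437 CPM, without overlap. The lipoprotein gene Apoa1, for example, lay at 12.9 ± 2.56 against 29.1 ± 6.04 CPM (SD, n = 4 each, adjusted p = 0.166, edgeR). Over all genes tested, 49.2% were lower in Mll1-/-. Of 7 tested enteroendocrine markers of 10, all 7 were lower (median -1.51), with sums of 8.08 to 12.2 against 9.71 to 79.0 CPM. Among them Chga (means of 0.0406 against 2.63 CPM) and Chgb (0.367 against 12.1 CPM) were lower in every Mll1-/- library. Their adjusted p were 0.245 and 0.139 (edgeR), and the other tested markers of this list overlapped between the genotypes. Chga and Chgb passed the filter on low counts only through the Mll1+/- libraries, which favours a lower value in Mll1-/-. Chga held 0 to 3 counts in the Mll1-/- libraries. Paneth cell markers (10 of 10 tested, 8 lower, median -1.06) summed to 1600 to 5100 against 3160 to 4990 CPM. The 2 higher Paneth markers were Mmp7 and Pla2g2a, with log2 fold changes of 1.04 and 0.64 (adjusted p of 0.154 and 0.887, edgeR). Mmp7 was higher in every Mll1-/- library, at 304 ± 89.7 against 148 ± 11.7 CPM (SD, n = 4 each). Pla2g2a ranged from 106 CPM in J_7100 to 2513 CPM in J_7136. Goblet cell markers (10 of 10 tested, 8 higher, median 1.01) summed to 709 to 1280 against 620 to 828 CPM, with overlap. The 2 lower goblet markers were Zg16 and Spink4, with log2 fold changes of -4.03 and -0.54 (adjusted p of 0.385 and 0.678, edgeR). Stem cell markers (10 of 10 tested, 8 lower, median -0.24) summed to 11100 to 18000 against 23500 to 27900 CPM, mostly from Olfm4 at 8080.3 to 14429 against 19281 to 22949 CPM. The 2 higher stem cell markers were Axin2 and Smoc2, with log2 fold changes of 0.44 and 0.03 (adjusted p of 0.384 and 0.98, edgeR). Axin2 was higher in every Mll1-/- library, at 226 ± 34.3 against 167 ± 14.5 CPM (SD, n = 4 each).

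Inflammatory epithelial genes (9 of 12 tested, 5 lower, median -0.41, and -0.08 without J_7135), read because Steap4 is known to be induced in inflamed tissue, summed to 1180 to 2050 against 2010 to 4410 CPM. This sum came mostly from Reg3b (means of 707 against 1584 CPM, with overlap) and Reg3g, an antimicrobial lectin. Reg3g lay lower in every Mll1-/- library (703 ± 92.9 against 1477 ± 647.2 CPM, SD, n = 4 each, adjusted p = 0.310, edgeR). The 4 higher genes were Duox2, Cxcl1, Ccl20 and Il17ra, with log2 fold changes of 0.73, 1.02, 0.38 and 0.71. Their adjusted p were 0.655, 0.824, 0.774 and 0.720 (edgeR). Leukocyte and macrophage markers (2 of 10 tested, both lower, median -0.82) summed to 3.73 to 8.80 against 7.90 to 16.5 CPM. The pan-leukocyte gene Ptprc, whose product CD45 was stained before sorting, lay at 0 to 0.131 CPM against 0.211 to 0.957 CPM. These are 0 to 2 against 3 to 16 counts, and Ptprc did not pass the filter on low counts. Among the other untested markers, Csf1r (means of 0.380 against 0.241 CPM) and Cd163 (0.113 against 0.0299 CPM) were higher in Mll1-/-. The macrophage gene C1qa was at 0 in 7 of 8 libraries, and the rest of the list had lower means. Tuft cell markers (2 of 8 tested, both higher, 1 at 0 in all libraries) summed to 3.09 to 10.3 against 2.57 to 4.26 CPM. Erythroid markers (0 of 8 tested, Hba-a2 and Hbb-bt at 0 in all libraries) summed to 0.379 to 1.27 against 0.802 to 2.93 CPM. In none of these lists did a gene have an adjusted p under 0.1 (edgeR).

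**Figure D4:**
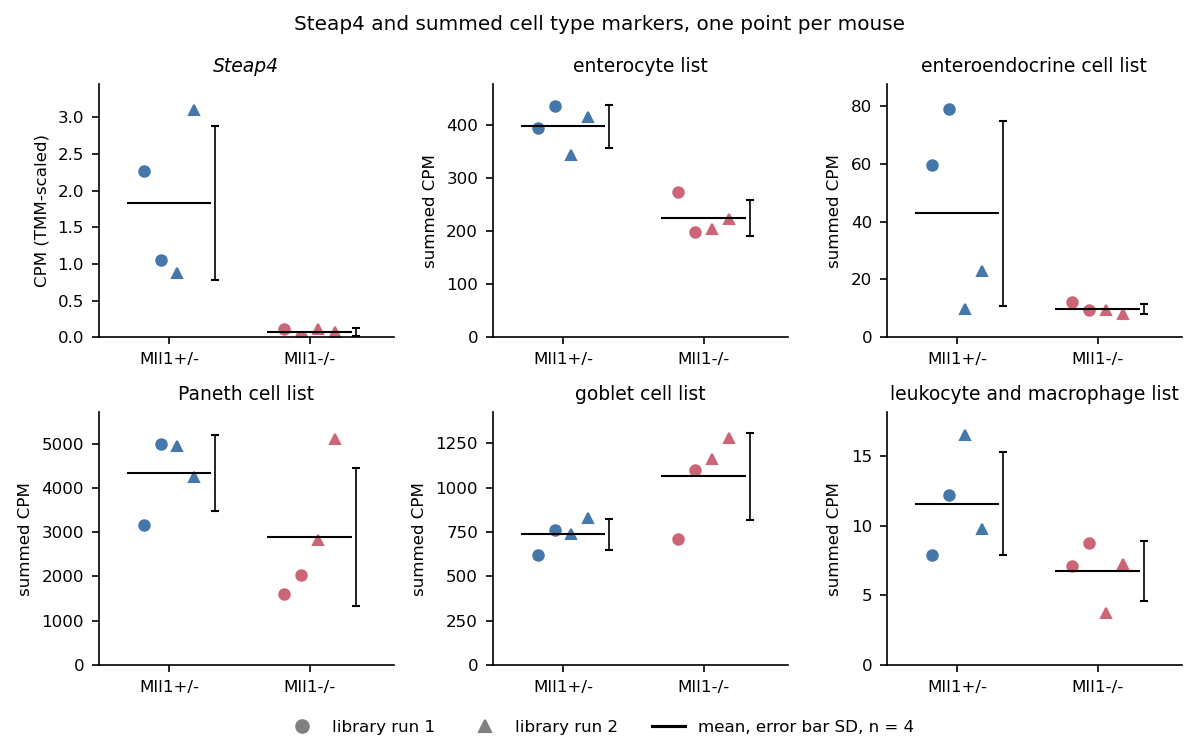
Steap4 (TMM-scaled CPM) and the summed CPM of 5 marker lists, 1 point per mouse, circles for the first library run and triangles for the second, with the mean as a line and the SD of 4 libraries as the error bar. The genotypes are apart for Steap4 and for the enterocyte list (199 to 274 against 344 to 437 CPM), and overlap for the enteroendocrine, Paneth, goblet and leukocyte lists.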

How the data were processed

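Sorted Lgr5-GFP+ cells of 8 mice were sequenced with Smart-seq2. Per the labels, the authors used bcl2fastq 2.19.1, GSNAP (mm10) and featureCounts 1.6.3. The authors deposited raw read counts of uniquely mapped reads for 53801 genes and 92 spike-in transcripts, without use of strand, and gene lengths in bases as another column. The authors also deposited a signal table of 25485 genes, in which counts are divided by the size factors of DESeq2 1.22.2, used here only to look up symbols.

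Counts were fitted with edgeR 4.0.16 (limma 3.58.1, R 4.3.3): filterByExpr with a minimum count of 10 and a minimum total of 15, TMM scaling and a robust quasi-likelihood test of genotype, two-sided, with Benjamini-Hochberg adjustment over 16445 genes and a threshold of 0.1, the false discovery rate of the study. Spike-ins were left out. Within-run differences use log2 CPM with a prior count of 2. Replicates are separate mice. Named genes were the 8 iron handling genes, Steap1, Kmt2a, the 4 genes of each of 5 iron lists with the smallest p, and the 5 genes most like Steap4; 2 genes under this rule are not reported here. Single markers, Aco1, Heph, Cybrd1 and Hamp fell outside this rule and were picked with their values in view. The genes, the iron lists and the marker lists were chosen with earlier results of these data known. Alternatives were DESeq2 1.42.0, other scalings and filters, the run as a block and each library left out. The sum of the ferritin light chain copies was chosen after seeing the data. Elements and shared words came from GENCODE annotation of GRCm38, and exon overlap from the exon coordinates that the authors gave with the counts. Figures were drawn with matplotlib 3.10.9.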

Additional observations from a re-analysis of the deposited data

How the results depend on the processing

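None of the 7 tested iron handling genes passed the threshold under any alternative, and all but Slc40a1 kept their direction. Steap4, chosen for its value, had log2 fold changes of -4.64 to -4.50 under other tests, scalings and filters, and it was removed by a minimum of 10 counts in every library, as was Slc40a1. The number of all genes called moved from 14 (8 higher, 6 lower) to 406 with DESeq2 (244 and 162), 8 with upper quartile scaling (3 higher), 47 without the filter (24 and 23), 34 with at least 10 counts in every library (15 and 19) and 0 with the library run as a block (0 and 0, with 1642 genes at an unadjusted p under 0.05). Leaving out 1 library gave 0 to 45 calls (0 to 22 higher, 0 to 23 lower): 45 without J_7135, 2 without J_7075 and 0 without any 1 of the other 6, where 1189 to 1847 genes had an unadjusted p under 0.05 over all 8 fits. The cause was not tested. DESeq2 called 1 listed iron gene (Hscb) where edgeR called 0. The sign turned for Slc40a1 (0.066 with the run as a block, -0.69 to 0.35 with 1 library left out), Steap1 (-0.39 to 0.24) and Ireb2 (-0.205 to 0.025). Slc40a1 turned to 0.21 without J_7079 or J_7096, 0.10 without J_7100 and 0.35 without J_7135. No paired analysis was possible because the labels give no number shared by mice of the 2 genotypes. Depth limits Steap4, Steap3 and Slc40a1, which hold few counts in several libraries.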
